A study of Lathyrus oleraceus with 4 samples.

Results

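A set of 191 pea unigenes was counted in seeds at 25 days after pollination (DAP) and was at or next to 0 reads in seeds at 10 DAP. A unigene is an assembled transcript sequence. The 191 were chosen by their read counts, with at least 100 reads in both 25 DAP libraries and at most 3 reads in both 10 DAP libraries, among 77269 unigenes in all (0.247%). Of the 23263 unigenes with at least 100 reads in both 25 DAP libraries, 0.821% met the rule, and the other 23072 serve here for comparison. Because the stage difference chose these unigenes, it is described here and carries no test.

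RNA-Seq was performed on whole seeds of 2 cultivars grown in the field, the grain pea Zhongwan 6 and the vegetable pea Zhewan 1. The 4 groups were Zhongwan 6 at 25 DAP, Zhewan 1 at 25 DAP, Zhongwan 6 at 10 DAP and Zhewan 1 at 10 DAP, with no treatment. Each group is 1 library of poly(A) RNA, made from seeds that were pooled over many plants. The study describes biological replicates, but the table holds a single column for each group, so no difference below has a replicate check and a test on reads compares 2 libraries, not 2 conditions. The reads counted on unigenes numbered 70912839 in Zhongwan 6 and 55819963 in Zhewan 1 at 25 DAP, against 60861344 in Zhongwan 6 and 50086351 in Zhewan 1 at 10 DAP. In whole seeds, fewer cells of a type and less RNA per cell cannot be told apart. In the annotation that could be read, some storage and oil body genes of seeds had reads in all 4 libraries. Not all did, and comp12822_c0_seq1, matched to a Kunitz family inhibitor of proteases, had 0 reads in Zhewan 1 at 25 DAP. An "unknown seed protein like 1" unigene (comp12618_c0_seq1) had 5121 reads in Zhongwan 6 and 2059 in Zhewan 1 at 25 DAP, against 1333 in Zhongwan 6 and 1877 in Zhewan 1 at 10 DAP.

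A young pea seed is built by cell division and by the growth of the seed coat and endosperm. Later in development the cotyledons fill the seed, store starch, protein and some lipid, and begin to acquire tolerance of drying. Genes of the filling phase, such as those of storage proteins, of oil body proteins and of small heat shock proteins, are known to be switched on in the growing embryo. The unigenes come from an assembly by Trinity, which groups sequences that share stretches into a component and numbers the sequences in it, so that comp24507_c0_seq2 is a sequence of component comp24507_c0. Sequences of a component can be splice forms, alleles or near copies of a gene, or pieces of a transcript. Reads were counted on more than 1 sequence where they matched several, and sequences of a component therefore share reads.

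The 191 unigenes drew 78095 reads in Zhongwan 6 and 82314 in Zhewan 1 at 25 DAP, against 81 in Zhongwan 6 and 58 in Zhewan 1 at 10 DAP. At 25 DAP this was 0.110% of the counted reads in Zhongwan 6 and 0.147% in Zhewan 1. At 10 DAP, 120 of the 191 had 0 reads in both libraries, and 24 had a read in both. In the single libraries at 10 DAP, 142 were at 0 reads in Zhongwan 6 and 145 in Zhewan 1, and the limit of 3 reads was reached by 9 in Zhongwan 6 and 3 in Zhewan 1. A count of 0 allows up to 3 reads, which on a sequence of 1 kb is 0.0493 RPKM (reads per kb of sequence, scaled to the counted total of the library) in Zhongwan 6 and 0.0599 RPKM in Zhewan 1 at 10 DAP, counting error only. For a unigene at 0 reads, a level below that cannot be told from absence at this depth.

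Most of these unigenes were expressed at a low level at 25 DAP. Their median was 4.07 RPKM in Zhongwan 6, with a range of 0.523 to 126, and 5.14 RPKM in Zhewan 1, with a range of 0.905 to 158. The other unigenes with at least 100 reads had medians of 4.63 RPKM in Zhongwan 6 and 5.90 RPKM in Zhewan 1, so the set lies near the middle of the unigenes read at this depth. In both 25 DAP libraries 143 of the 191 (74.9%) were under 10 RPKM. At 10 RPKM or more there were 27 in Zhongwan 6 and 37 in Zhewan 1, and the 3 with the highest RPKM held 13.3% of the set's reads in Zhongwan 6 and 13.1% in Zhewan 1.

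**Figure D1:**
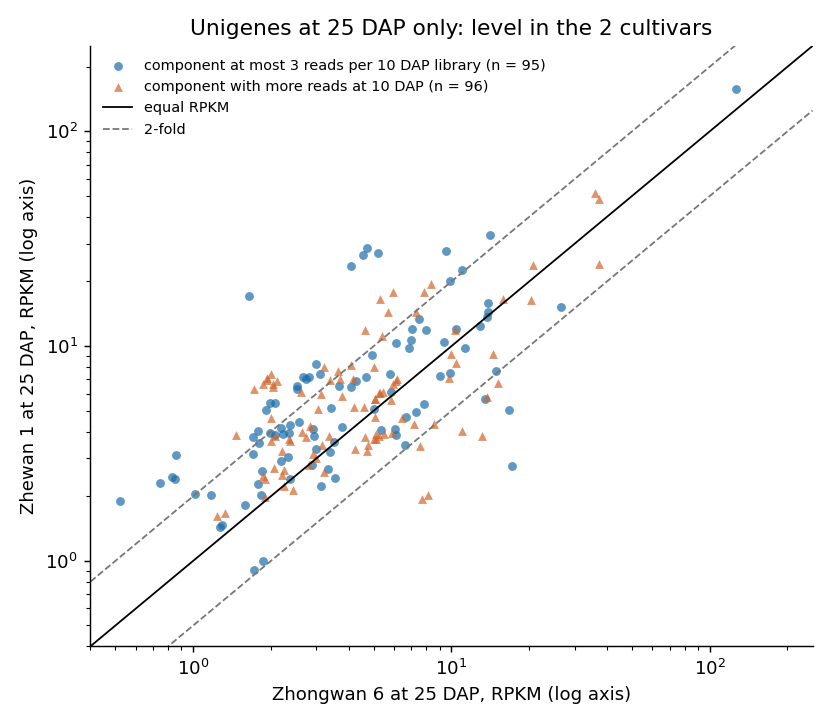
RPKM of each of the 191 unigenes at 25 DAP in Zhongwan 6 (horizontal) and Zhewan 1 (vertical), both on log axes, with 1 library each. Circles are unigenes whose whole Trinity component had at most 3 reads in each 10 DAP library (95), triangles those whose component had more (96). The solid line marks equal RPKM and the dashed lines a 2-fold difference. A single unigene lies above 100 RPKM, and more points lie beyond 2-fold on the Zhewan 1 side.

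One unigene stood far above the rest. comp34924_c0_seq2, a sequence of 581 bp, alone in its component and with no row in the readable annotation, had 5200 reads in Zhongwan 6 and 5122 in Zhewan 1 at 25 DAP, against 0 in Zhongwan 6 and 3 in Zhewan 1 at 10 DAP. Its level at 25 DAP was 126 RPKM in Zhongwan 6 and 158 RPKM in Zhewan 1, or 0.799 of the Zhewan 1 level (95% exact interval, 0.769 to 0.831, counting error only). The next highest value in either library was 51.6 RPKM.

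The next in level were sequences of larger components, and in the first of these the component itself was far from absent at 10 DAP. comp39373_c0_seq9 (1228 bp) had 3122 reads in Zhongwan 6 and 3536 in Zhewan 1 at 25 DAP, against 3 in Zhongwan 6 and 1 in Zhewan 1 at 10 DAP. Its component comp39373_c0 had 4970904 reads in Zhongwan 6 and 8293012 in Zhewan 1 at 25 DAP, against 1755723 in Zhongwan 6 and 856739 in Zhewan 1 at 10 DAP, and seq9 held 0.0502% of its 25 DAP reads. comp32578_c0_seq4 (777 bp) had 2044 reads in Zhongwan 6 and 2097 in Zhewan 1 at 25 DAP, against 3 in Zhongwan 6 and 1 in Zhewan 1 at 10 DAP. In this component the other sequence, comp32578_c0_seq2, followed the same pattern and missed the rule by 2 reads. It had 2000 reads in Zhongwan 6 and 2267 in Zhewan 1 at 25 DAP, against 5 in Zhongwan 6 and 2 in Zhewan 1 at 10 DAP.

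Of the other 7 among the 10 highest by mean RPKM at 25 DAP, 4 were alone in their components. comp11006_c0_seq1 (501 bp) had 503 reads in Zhongwan 6 and 918 in Zhewan 1 at 25 DAP and 0 in both 10 DAP libraries. comp18187_c0_seq1 (999 bp) had 780 reads in Zhongwan 6 and 1266 in Zhewan 1 at 25 DAP, also with 0 in both 10 DAP libraries. Both were called lower in Zhongwan 6, with ratios of 0.431 (exact interval, 0.386 to 0.481) and 0.485 (0.443 to 0.531). With scaling by median ratios both calls were lost, at log2 ratios of -0.88 and -0.71. comp41426_c0_seq1 (342 bp) went the other way, with 644 reads in Zhongwan 6 and 290 in Zhewan 1 at 25 DAP and 0 in both 10 DAP libraries. comp41848_c0_seq1 (234 bp) had 158 reads in Zhongwan 6 and 363 in Zhewan 1 at 25 DAP, against 0 in Zhongwan 6 and 1 in Zhewan 1 at 10 DAP. The remaining 3 shared their component with sequences that were read at 10 DAP.

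comp37735_c0_seq11 (1960 bp) was the clearest of these, because it was also the leading sequence of its component at 25 DAP. It had 2886 reads in Zhongwan 6 and 2598 in Zhewan 1 at 25 DAP, against 2 in each cultivar at 10 DAP. The other 6 sequences of comp37735_c0 had 453 to 618 reads in Zhongwan 6 and 742 to 1194 in Zhewan 1 at 25 DAP, against 475 to 751 in Zhongwan 6 and 198 to 261 in Zhewan 1 at 10 DAP. The component was thus read at both stages while seq11 was read at 25 DAP. comp40631_c1_seq13, the shortest of the set at 218 bp, had 313 reads in Zhongwan 6 and 199 in Zhewan 1 at 25 DAP and 0 in both 10 DAP libraries. Its component held 2 sequences of the opposite kind, comp40631_c1_seq11 and comp40631_c1_seq12, with 0 reads in both cultivars at 25 DAP, against 371 and 74 reads in Zhongwan 6 and 178 and 77 reads in Zhewan 1 at 10 DAP.

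The 191 unigenes came from 132 Trinity components, and about as many lay in components that were silent at 10 DAP as in components that were not. For 95 (49.7%, in 78 components) all sequences of the component together had at most 3 reads in each 10 DAP library. For 96 (50.3%, in 54 components) the component had more reads at 10 DAP. Taken by the comp number alone, which joins related components, 85 remained without more than 3 reads in a 10 DAP library. The name of the set, unigenes present only at 25 DAP, therefore holds for the assembled sequence. By the limit of 3 reads it does not hold for the component of 96 of the 191. Some of these components passed that limit by few reads. comp32578_c0 had 8 reads in Zhongwan 6 and 3 in Zhewan 1 at 10 DAP, against 4044 and 4364 at 25 DAP. Over the 54 components the log2 ratio of 25 over 10 DAP ran from -2.36 to 8.76 in Zhongwan 6. Only 29.3% of the 191 were alone in their component, against 38.7% of the other unigenes with at least 100 reads and 68.9% of all unigenes.

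In the 54 components with reads at 10 DAP, the sequences of the set held widely differing shares of the reads. They held a median of 10.8% each of the component's 25 DAP reads, with a range of 0.0502% to 100%, and 50 of the 96 held at least 10% while 3 held under 1%. Their low reads at 10 DAP and their minimum of 100 reads at 25 DAP were set by the rule. Forms with few reads at 25 DAP thus could not enter the set. Sequences of a component also share reads, so these percentages overlap. Over whole components, the log2 ratio of 25 over 10 DAP, scaled to the library totals, had a median of 0.73 in Zhongwan 6 and 1.59 in Zhewan 1. In Zhongwan 6, 15 of 54 components were lower at 25 DAP. In Zhewan 1, 8 of the 51 with over 3 reads at 10 DAP were lower. These sums include the sequences of the set, so the rule itself raises the ratios. They were not set beside the ratios of other components, and the libraries of the 2 cultivars also differ by stage over all unigenes.

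**Figure D2:**
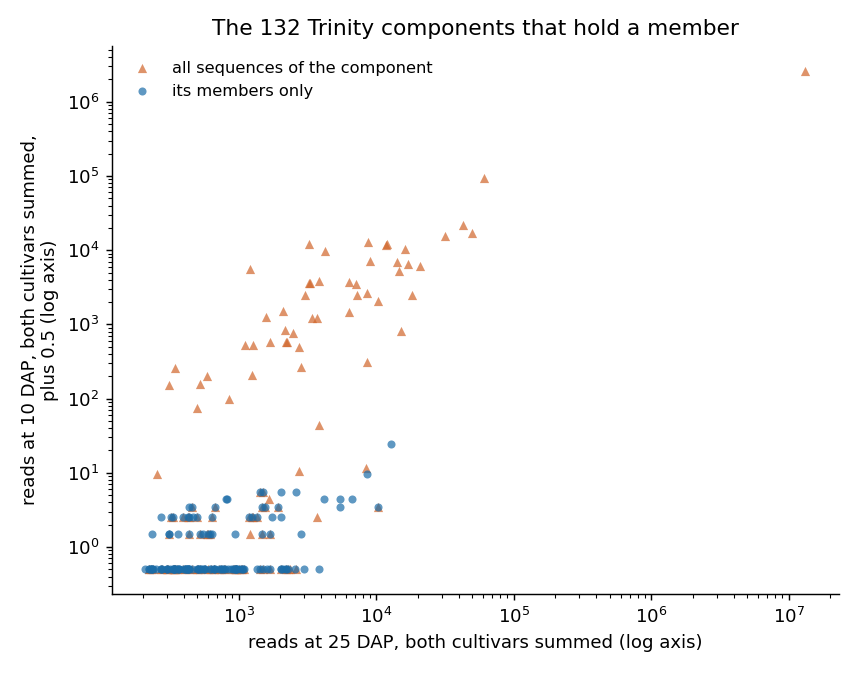
Reads of the 132 components that hold a unigene of the set, at 25 DAP (horizontal) and at 10 DAP (vertical, plus 0.5), with both cultivars summed and log axes. Triangles are all sequences of a component, and circles are the unigenes of the set alone. Where no other sequence adds reads, the circle covers the triangle. The upper cloud of triangles is formed by the components with reads at 10 DAP, and the far right one is comp39373_c0.

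In 11 components, which hold 19 of the 191, a sequence of the set stood beside a sequence with the opposite pattern, with at least 10 reads in both 10 DAP libraries and at most 3 in both 25 DAP libraries. These limits were chosen after the values were seen, and how often other components hold such a sequence was not counted. There were 18 such sequences, and 9 of them met the mirrored rule in full (at least 100 reads in both 10 DAP libraries and at most 3 in both 25 DAP libraries). One of them was comp38560_c1. Its seq19 (932 bp) had 275 reads in Zhongwan 6 and 366 in Zhewan 1 at 25 DAP, against 0 in Zhongwan 6 and 1 in Zhewan 1 at 10 DAP. Its seq1, seq3, seq4 and seq9 had 0 reads in both 25 DAP libraries, against 141 to 648 in Zhongwan 6 and 125 to 448 in Zhewan 1 at 10 DAP. In comp40119_c2, seq1 (1202 bp) had 1345 reads in Zhongwan 6 and 1116 in Zhewan 1 at 25 DAP, against 0 in Zhongwan 6 and 2 in Zhewan 1 at 10 DAP. The opposite sequence there was seq6, with 1 read in Zhongwan 6 and 0 in Zhewan 1 at 25 DAP, against 662 in Zhongwan 6 and 504 in Zhewan 1 at 10 DAP. These components could also hold sequences read at both stages. All sequences of comp40119_c2 together had 6856 reads in Zhongwan 6 and 2143 in Zhewan 1 at 25 DAP, against 4191 in Zhongwan 6 and 2918 in Zhewan 1 at 10 DAP, of which seq6 held a minor share.

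A component held 1 unigene of the set in 103 cases and at least 2 in 29, which together hold 88. The most were in comp41007_c1 (13 of its 17 sequences), comp24507_c0 (7 of 8), comp40041_c1 (7 of 23) and comp31845_c1 (4 of 4), followed by 7 components with 3 each. Sequences of a component are not separate observations, since they share reads.

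In comp24507_c0 the stages were split between sequences. Its 7 unigenes of the set, of 769 to 1059 bp, had 129 to 241 reads in Zhongwan 6 and 154 to 373 in Zhewan 1 at 25 DAP. At 10 DAP they had 0 reads apart from 1 read on seq3 in Zhongwan 6. The eighth sequence, seq1 (586 bp), had 0 reads in both 25 DAP libraries, against 201 in Zhongwan 6 and 68 in Zhewan 1 at 10 DAP. The cultivars also differed within the component. seq4 had 230 reads in Zhongwan 6 and 373 in Zhewan 1 at 25 DAP, and seq5 had 224 in Zhongwan 6 and 371 in Zhewan 1, both called lower in Zhongwan 6. Both calls were lost with scaling by median ratios, at log2 ratios of -0.71 and -0.74. The other 5 were not called.

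comp41007_c1 gave the most unigenes of the set and held forms that differed between the cultivars in opposite directions. Its 8 long sequences, of 2211 to 2496 bp, had 284 to 359 reads in Zhongwan 6 and 822 to 926 in Zhewan 1 at 25 DAP, with log2 ratios of -1.89 to -1.66. With seq20 (-1.22) and seq23 (-1.39), they make up the 10 called lower in Zhongwan 6. The other 3, seq3, seq4 and seq21, of 1193 to 1376 bp, had 425 to 462 reads in Zhongwan 6 and 246 to 267 in Zhewan 1, with log2 ratios of 0.44 to 0.46 that did not reach 2-fold. At 10 DAP, 12 of the 13 had 1 read in each library, and seq23 had 0 in both. Of the 16 unigenes of the set with exactly 1 read in each 10 DAP library, 14 were from comp41007. Among the 4 sequences outside the set, seq7 had 650 reads in Zhongwan 6 and 293 in Zhewan 1 at 25 DAP, against 191 in Zhongwan 6 and 121 in Zhewan 1 at 10 DAP, so the component was not silent at 10 DAP.

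In comp40041_c1 the sequences fell into separate groups by their reads at 10 DAP. The 7 in the set had 417 to 758 reads in Zhongwan 6 and 372 to 677 in Zhewan 1 at 25 DAP, against 0 or 3 in Zhongwan 6 and 0 in Zhewan 1 at 10 DAP. A further 5 sequences had 534 to 645 reads in Zhongwan 6 and 496 to 587 in Zhewan 1 at 25 DAP, against 14 or 17 in Zhongwan 6 and 1 in Zhewan 1 at 10 DAP. They missed the rule by their reads in Zhongwan 6 at 10 DAP alone. The other 11 were read at both stages, with 178 to 1813 reads in Zhongwan 6 and 63 to 875 in Zhewan 1 at 10 DAP. The cultivar log2 ratios of the 7 at 25 DAP lay between -0.20 and -0.17, so none was called.

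**Figure D3:**
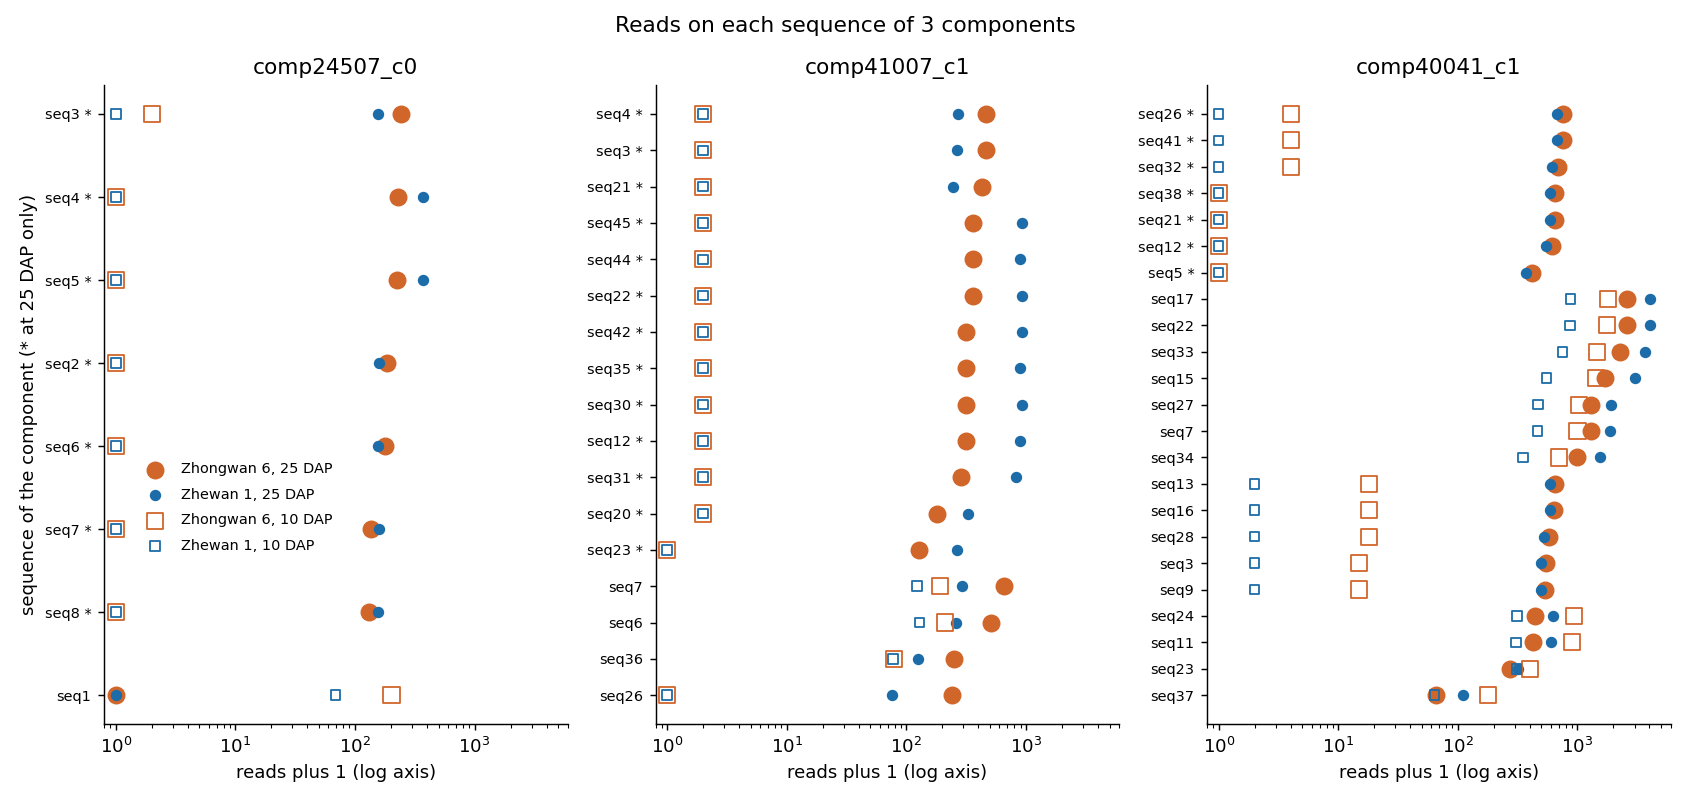
Reads (plus 1, log axis) on every sequence of comp24507_c0, comp41007_c1 and comp40041_c1. Filled circles are 25 DAP and open squares 10 DAP, large orange symbols are Zhongwan 6 and small blue symbols Zhewan 1, with 1 library each, and an asterisk marks a sequence of the set. The sequences of the set keep their squares at 3 reads or fewer, while comp24507_c0_seq1 has squares at 201 and 68 reads and circles at 0.

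comp31845_c1 and comp25404_c0 were silent at 10 DAP as whole components. The 4 sequences of comp31845_c1 (1006 to 1181 bp) had 148 to 212 reads in Zhongwan 6 and 305 to 431 in Zhewan 1 at 25 DAP and 0 in both 10 DAP libraries. All 4 were called lower in Zhongwan 6, with log2 ratios of -1.40 to -1.36. The 3 sequences of comp25404_c0 (693 to 2019 bp) had 228 to 526 reads in Zhongwan 6 and 279 to 736 in Zhewan 1 at 25 DAP, and 0 in both 10 DAP libraries. Their log2 ratios of -0.83 to -0.62 fell short of 2-fold. Of the other 6 components with 3 unigenes of the set, comp33871_c0 had 0 reads in Zhongwan 6 and 3 in Zhewan 1 at 10 DAP over all its sequences, and the remaining 5 had 392 to 7239 in Zhongwan 6 and 363 to 3252 in Zhewan 1.

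The set was compared between the cultivars at 25 DAP, which the rule did not use beyond asking for 100 reads in each library. A unigene was called where an exact test by Fisher's method of its reads in the 2 libraries gave an adjusted p (FDR) of 0.001 or less over all unigenes and the RPKM ratio was at least 2-fold. Zhongwan 6 was higher for 10 of the 191 (5.24%) and lower for 49 (25.7%), and 132 were not called. Among the other unigenes with at least 100 reads, 4.59% were called higher and 14.7% lower in Zhongwan 6, and among all unigenes with a read 4.93% were higher and 12.3% lower. The share called higher lies near this background, and the share called lower lies above it. Of the 49 lower calls, 10 were in comp41007_c1 and 4 in comp31845_c1. Sequences of a component share reads, so these calls are not separate observations. With reads summed over all sequences of a component, those outside the set included, 7 of the 132 components (5.30%) were called higher and 28 (21.2%) lower. Of the 14331 other components with at least 100 reads in both 25 DAP libraries, 4.42% were higher and 15.4% lower.

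The middle of the set lay next to that of the other unigenes. Over the set the log2 ratio, Zhongwan 6 over Zhewan 1, had a median of -0.37 (quartiles, -1.01 and 0.11), and over the other unigenes with at least 100 reads one of -0.38 (quartiles, -0.77 and 0.00). The set was thus spread more widely about the same median, and 56 of the 191 had a ratio above 1. Much of that median is common to the libraries, since 22135 unigenes with at least 1 RPKM in all 4 libraries had a median log2 ratio of -0.34. With the libraries scaled by median ratios, the set's median was -0.036 and that of the others -0.048. The calls then were 17 higher (8.90%) and 32 lower (16.8%) in Zhongwan 6 in the set, against 7.82% higher and 6.95% lower among the others.

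**Figure D4:**
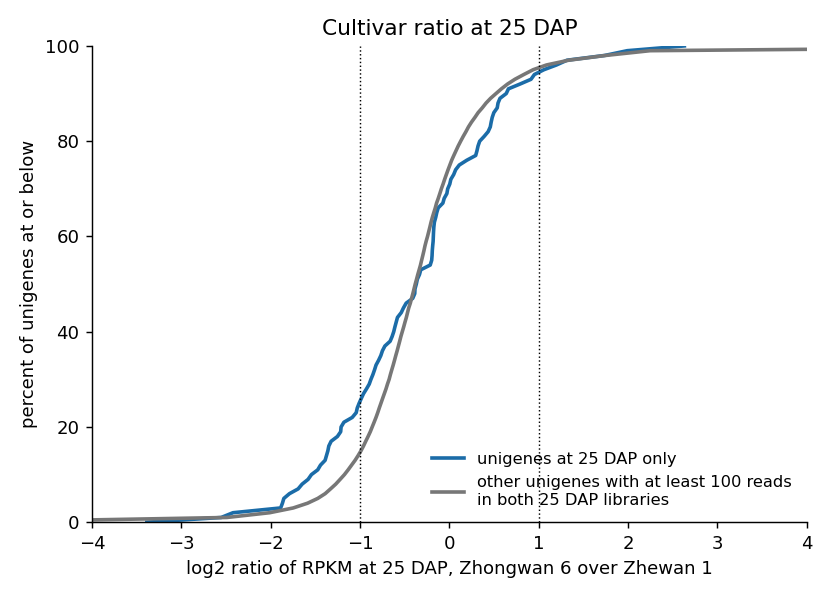
Percent of unigenes at or below each log2 ratio of RPKM at 25 DAP, Zhongwan 6 over Zhewan 1, for the 191 unigenes of the set (blue) and the 23072 other unigenes with at least 100 reads in both 25 DAP libraries (grey), drawn from percentiles. Dotted lines mark 2-fold. The curves cross near the shared median of about -0.37 and -0.38, and the blue curve is higher left of -1.

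The cultivar ratio was also taken by kind of component. The median log2 ratio was -0.58 for the 95 in components with at most 3 reads per 10 DAP library, with 3 called higher and 27 lower, and -0.20 for the other 96, with 7 called higher and 22 lower. Whether the 2 kinds differ was not tested, and the ratios within each kind spread over more than the gap between these medians.

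The 5 lowest ratios among unigenes with at least 10 RPKM in the higher library all belonged to silent components. comp14428_c0_seq1 (1382 bp) had 161 reads in Zhongwan 6 and 1326 in Zhewan 1 at 25 DAP, against 3 in Zhongwan 6 and 0 in Zhewan 1 at 10 DAP. Its level was 1.64 RPKM in Zhongwan 6 and 17.2 RPKM in Zhewan 1, giving 0.0956 as the ratio (exact interval, 0.0806 to 0.113). The next were comp21007_c0_seq1 (494 bp), comp17985_c0_seq1 (859 bp), comp12172_c0_seq1 (582 bp) and comp12644_c0_seq1 (492 bp), with ratios of 0.164, 0.171, 0.172 and 0.190. They had 165 to 277 reads in Zhongwan 6 and 749 to 1277 in Zhewan 1, and their levels of 4.07 to 5.19 RPKM in Zhongwan 6 and 23.7 to 28.6 RPKM in Zhewan 1 were close to each other.

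Among unigenes with at least 10 RPKM in the higher library, the highest ratio was that of comp40119_c0_seq4 (1174 bp), with 1431 reads in Zhongwan 6 and 182 in Zhewan 1 at 25 DAP and 0 in both 10 DAP libraries. Its level was 17.2 RPKM in Zhongwan 6 and 2.78 RPKM in Zhewan 1, giving 6.19 as the ratio (exact interval, 5.30 to 7.26). The other sequence of the component, comp40119_c0_seq2, was read at 25 DAP in Zhongwan 6 with 997 reads and had 0 in Zhewan 1, which kept it outside the set. comp6872_c0_seq1 (934 bp), alone in its component, had 1103 reads in Zhongwan 6 and 262 in Zhewan 1, giving a ratio of 3.31 (2.89 to 3.81). The other 3 of the 5 highest at that level, comp40010_c1_seq8, comp40611_c0_seq49 and comp34075_c0_seq2, had ratios of 3.43, 2.75 and 2.38 and lay in components that were read at 10 DAP. Below 10 RPKM in both libraries, comp40713_c0_seq30 had 8.13 RPKM in Zhongwan 6 and 2.02 RPKM in Zhewan 1 (ratio 4.02) and comp40713_c0_seq53 had 7.67 RPKM in Zhongwan 6 and 1.93 RPKM in Zhewan 1 (ratio 3.97), both called higher and both of a component read at 10 DAP.

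The cultivar ratio could differ between sequences of a component. In comp40010_c1, seq7 (341 bp) had 904 reads in Zhongwan 6 and 458 in Zhewan 1 at 25 DAP, giving 1.55 as the ratio (exact interval, 1.39 to 1.74), while seq8 (765 bp) had 710 in Zhongwan 6 and 163 in Zhewan 1, giving 3.43 (2.89 to 4.09). The intervals do not overlap. In 3 of the 29 components with at least 2 unigenes of the set, the ratios lay on both sides of 1, comp41007_c1 and comp24507_c0 among them.

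The set was of middling length. Its median was 983 bp, with quartiles of 711.5 and 1370 bp, against 1652 bp for the other unigenes with at least 100 reads and 529 bp for all unigenes. Sequences under 500 bp made up 8.38% of the set, against 2.65% of the other unigenes with at least 100 reads and 48.3% of all. Only 3 (1.57%) reached 3000 bp, against 13.6% of the others. A count minimum of 100 favours long sequences at a given RPKM, and it applied to the set and to these others alike. The limit of 3 reads at 10 DAP applied to the set alone, and at a given RPKM it favours short sequences. How much of the difference in length comes from that limit was not tested. The longest, comp8425_c0_seq2 (3373 bp), had 198 reads in Zhongwan 6 and 462 in Zhewan 1 at 25 DAP, 0.828 RPKM against 2.45 RPKM, and 0 reads in both 10 DAP libraries. The medians were 972 bp in silent components and 1009 bp in the others.

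**Figure D5:**
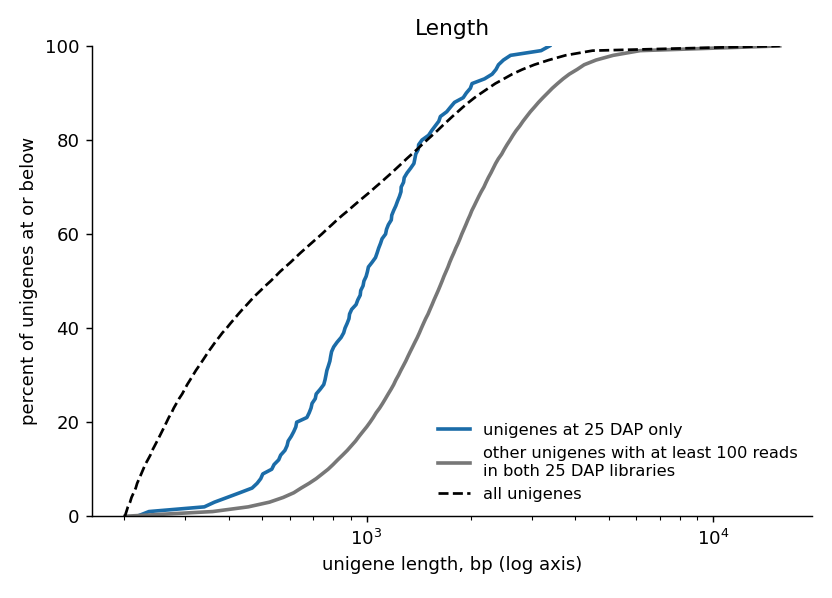
Percent of unigenes at or below each length (bp, log axis) for the 191 unigenes of the set (blue), the 23072 other unigenes with at least 100 reads in both 25 DAP libraries (grey) and all 77269 unigenes (dashed), drawn from percentiles. The blue curve reaches 50% at 983 bp, the grey one at 1652 bp and the dashed one at 529 bp.

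Of the 191, 5 had a row in the readable part of the study's annotation, which names the closest protein of Medicago truncatula, a model legume. That part holds 1998 rows, of which 1121 name a unigene of the table and 318 name one with at least 100 reads in both 25 DAP libraries. The other 186 are left without a name here. All 5 lay in components that were silent at 10 DAP. Only the first rows of the annotation could be read, and the 5 have component numbers near each other. They are therefore not a random sample of the set.

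A pair of them, comp11006_c0_seq1 and comp12644_c0_seq1, had the same closest protein, Medtr3g072170.1, of a hypoxia-responsive family, which takes its name from genes induced at low oxygen. comp12644_c0_seq1 had 181 reads in Zhongwan 6 and 749 in Zhewan 1 at 25 DAP, and 0 in both 10 DAP libraries, like comp11006_c0_seq1 described above. The pair lies in different components, and both unigenes were called lower in Zhongwan 6, by ratios of 0.431, a call lost with scaling by median ratios (log2, -0.88), and 0.190. comp12172_c0_seq1 was matched to Medtr7g022840.1, listed as a plant protein of unknown function. It had 168 reads in Zhongwan 6 and 769 in Zhewan 1 at 25 DAP, against 1 in Zhongwan 6 and 0 in Zhewan 1 at 10 DAP. Its sister sequence comp12172_c0_seq2 followed it at a lower count, with 58 reads in Zhongwan 6 and 266 in Zhewan 1 at 25 DAP.

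comp12547_c0_seq2 was matched to Medtr5g083830.1, which has no description, and had 276 reads in Zhongwan 6 and 442 in Zhewan 1 at 25 DAP and 0 in both 10 DAP libraries. Its ratio of 0.492 was called, but fell short of 2-fold with scaling by median ratios (log2, -0.69), with equal sums of RPKM (-0.96) and with a pseudocount of 1 RPKM (-0.96). comp12663_c0_seq3 was matched to Medtr6g021730.1, a RING domain ligase. RING proteins of this kind attach ubiquitin to other proteins. It had 108 reads in Zhongwan 6 and 142 in Zhewan 1 at 25 DAP and 0 in both 10 DAP libraries. The ratio of 0.599 (exact interval, 0.462 to 0.774) did not reach 2-fold. Its sister comp12663_c0_seq2 had 26 reads in Zhongwan 6 and 30 in Zhewan 1 at 25 DAP and 0 at 10 DAP.

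No unigene of 4 lists drawn by words in the annotation was in the set. The lists were seed maturation and storage (12 unigenes), heat shock and chaperones (8), photosynthesis (8) and ribosomal proteins (20). Of these 48 unigenes, 23 had at least 100 reads in both 25 DAP libraries, and at the set's share of such unigenes (0.821%) 0.189 would be in the set, so the 0 found says nothing about the set. Of the 12 for seed maturation and storage, 2 were called higher and 2 lower at 25 than at 10 DAP in Zhongwan 6, and in Zhewan 1 0 were higher and 4 of 11 lower. Of the 8 for heat shock, 2 were higher and 2 lower in Zhongwan 6, and 4 were higher and 1 lower in Zhewan 1. Of the 8 for photosynthesis, 2 were higher in Zhongwan 6 and 4 in Zhewan 1, and none was lower. Ribosomal proteins, which serve as a housekeeping list, had 3 higher and 1 lower of 20 in Zhongwan 6 and 12 higher and 0 lower in Zhewan 1. Of all unigenes with a read, 9.08% were called higher and 16% lower at 25 DAP in Zhongwan 6, and 20.7% higher and 9.42% lower in Zhewan 1.

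The listed unigene nearest to the rule was comp12242_c0_seq1, matched to heat shock protein 21, a small chaperone of plastids. It had 2064 reads in Zhongwan 6 and 3382 in Zhewan 1 at 25 DAP, against 8 in Zhongwan 6 and 3 in Zhewan 1 at 10 DAP. It was kept out by its 8 reads. Other listed seed genes were read at both stages, such as comp13486_c0_seq1, a caleosin-related protein of oil bodies, with 869 reads in Zhongwan 6 and 677 in Zhewan 1 at 25 DAP, against 425 in Zhongwan 6 and 1352 in Zhewan 1 at 10 DAP.

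The rule has sharp limits, and many unigenes lie close to them. Just inside was comp15888_c0_seq4 (816 bp), with 103 reads in Zhongwan 6 and 104 in Zhewan 1 at 25 DAP. The next, comp37617_c0_seq3, comp40873_c0_seq9, comp7563_c0_seq2 and comp40873_c0_seq11, had 104 to 130 reads in Zhongwan 6 and 103 to 110 in Zhewan 1, and all 5 had 0 reads at 10 DAP. Just outside was comp40810_c1_seq22 (728 bp), with 139 reads in Zhongwan 6 and 98 in Zhewan 1 at 25 DAP and 0 in both 10 DAP libraries. The next outside, comp3986_c0_seq1, comp41889_c0_seq1, comp21827_c0_seq2 and comp30550_c0_seq1, had 92 to 94 reads in Zhongwan 6 and 100 to 1098 in Zhewan 1. In all, 548 unigenes missed the rule in 1 library alone. Zhongwan 6 at 25 DAP kept out 258, Zhewan 1 at 25 DAP 200, Zhongwan 6 at 10 DAP 57 and Zhewan 1 at 10 DAP 33. Of the last 2 groups, 42 had 4 to 10 reads in the 10 DAP library that kept them out, and 12 had exactly 4.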

How the data were processed

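Poly(A) RNA of pea seeds was sequenced on an Illumina HiSeq 2000, with 1 library for each combination of cultivar and stage. All 4 libraries were assembled together with Trinity by the authors, who then mapped the reads of each library to the assembly with Bowtie 0.12.8 and deposited the count of reads on each unigene. The authors also deposited RPKM, the count per kb of unigene and scaled to the counted total. Recomputed from the counts, RPKM differed by over 0.1% in 2 values, 0 of them in the set. Reads that match several sequences were counted more than once, which raises counts and makes sequences of a component depend on each other.

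The unigenes of the set, the lists and the tests were chosen with earlier results of these data known. The set holds unigenes with at least 100 reads in both 25 DAP libraries and at most 3 in both 10 DAP libraries. Levels and ratios are of deposited RPKM, without a pseudocount. Calls used Fisher's exact test (two-sided) of the deposited counts, with Benjamini-Hochberg adjustment over unigenes with a read in the 2 libraries, at an FDR of 0.001 or less and at least 2-fold. Intervals of ratios are exact (Clopper-Pearson, 95%) and, like the floor of 3 reads for a count of 0, cover counting error only. Named unigenes are those with an annotation, the 10 highest by mean RPKM at 25 DAP, the 5 highest and 5 lowest ratios at 10 RPKM or more, the longest and shortest, those at the limits of the rule, and those of the components with most unigenes of the set (7 tie at 3, and the first by name, comp25404_c0, was taken). Some sister sequences and the components with opposite sequences were chosen after their values were seen.

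Alternatives were other scalings, limits, tests and pseudocounts and sums over components. edgeR 4.0.16 in R 4.3.3 was used for an alternative with an assumed coefficient of variation. Tests and plots were run in Python 3.11.15 with SciPy 1.17.1, NumPy 2.4.6, matplotlib 3.10.9 and pandas 2.3.3. Of the unigene identifiers, 0 were found among the pea genes of RefSeq, which therefore added no names, and unigene sequences were not used here.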

Additional observations from a re-analysis of the deposited data

How the results depend on the processing

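With 1 library per group, no library could be left out. No paired analysis was possible because each group has a single library. The number of unigenes in the set was 330 with at least 50 reads at 25 DAP, 101 with at least 200, 120 with 0 reads at 10 DAP, and 91 when components were summed. It was 267 with up to 10 reads at 10 DAP and 158 with counts scaled to the smallest library. The calls between Zhongwan 6 and Zhewan 1 at 25 DAP, 10 higher and 49 lower, became 17 and 32 with scaling by median ratios, 2 and 5 at a 4-fold threshold, and 5 and 14 with edgeR's likelihood ratio test at an assumed coefficient of variation of 0.2. At an assumed 0.4 edgeR called 0 higher and 0 lower, with 21 at an unadjusted p under 0.05. As sets of other sizes, the lower calls were 28 of 132 summed components (21.2%), 75 with at least 50 reads (22.7%), 26 with 0 reads at 10 DAP (21.7%) and 86 with up to 10 (32.2%), and with at least 200 reads there were 5 higher and 29 lower (4.95% and 28.7%). Outside each set, among those with as many reads at 25 DAP, 13.3% to 16.2% were lower. No share outside the set was taken at the 4-fold threshold or with edgeR. Those counts therefore do not show whether the set differed from the other unigenes. The median log2 ratio was -0.036 with scaling by median ratios. Changes of single unigenes were listed for 28 of the named ones. Of these, comp34924_c0_seq2 (0.012), comp37617_c0_seq3 (0.33), comp37735_c0_seq11 (0.14) and comp7563_c0_seq2 (0.18) had log2 ratios above 0 with scaling by median ratios. comp37617_c0_seq3 (0.054) had one above 0 also with equal sums of RPKM. None of these 4 was called. Among those of the 28 that were called, comp11006_c0_seq1 lost the call with scaling by median ratios and comp8425_c0_seq2 with the pseudocount. comp12547_c0_seq2 and comp18187_c0_seq1 lost it with both scalings and the pseudocount. Named unigenes outside the 28, such as those of the components with most unigenes of the set, are not in these lists. Some of them changed too with median ratios. comp24507_c0_seq4 (-0.71) and comp24507_c0_seq5 (-0.74) lost their calls, and comp40041_c1_seq26 (0.15) and comp40041_c1_seq41 (0.14) had log2 ratios above 0. Of the 28, edgeR at 0.2 lost 7 and at 0.4 lost 15, and comp41426_c0_seq1 gained a call with median ratios (1.14). Other than the scalings and stricter limits by their construction, the cause of these changes was not tested. Low counts limit the set at 25 DAP, where 100 reads is the minimum, and the lack of replicates limits every call.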

Other observations

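With the limit at 25 DAP asked of a single cultivar, and that at 10 DAP still of both, more unigenes met the rule. In Zhongwan 6, 391 unigenes had at least 100 reads at 25 DAP with at most 3 in both 10 DAP libraries. Of these, 191 (48.8%) also had 100 reads in Zhewan 1, and 128 had at most 3 reads there. In Zhewan 1 there were 449, of which the 191 are 42.5%, and 166 had at most 3 reads in Zhongwan 6. The same shares were not taken over all unigenes with at least 100 reads at 25 DAP. Whether this sharing is particular to these unigenes was therefore not tested. comp34706_c0_seq10 (1679 bp) had 3175 reads in Zhongwan 6 and 1 in Zhewan 1 at 25 DAP, against 3 in Zhongwan 6 and 0 in Zhewan 1 at 10 DAP. comp29471_c0_seq2 (1367 bp) had 0 reads in Zhongwan 6 and 2662 in Zhewan 1 at 25 DAP and 0 in both 10 DAP libraries. These examples were chosen after their values were seen.

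The 191 unigenes at 25 DAP compare with 243 under the mirrored rule, at most 3 reads in both 25 DAP libraries and at least 100 in both 10 DAP libraries. comp12822_c0_seq1, matched to a Kunitz family inhibitor of proteases, had 777 reads in Zhongwan 6 and 0 in Zhewan 1 at 25 DAP, against 4 in Zhongwan 6 and 54 in Zhewan 1 at 10 DAP, so the stage at which it was read differed between the cultivars' libraries.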
